A study of Mus musculus with 8 samples.

Results

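Interleukin-22 (IL-22) is a cytokine that lymphocytes of the gut wall release and that the epithelium receives. The genes followed here were Il22 itself, Il22ra1, which encodes the receptor chain that gives a cell its response to IL-22, and Il22ra2, which encodes a soluble protein that binds IL-22 and keeps it from its receptor. They were taken by name and are 3 of the 31053 genes counted. The series design asks how colonic lamina propria cells of wildtype mice differ between dextran sulfate sodium (DSS) colitis and health, and how RORgtS182A mutant mice differ from wildtype in each state. The mutation changes 1 amino acid. The sample titles call the mutant S203AKI and the wildtype WT.

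The 8 libraries fell into 4 groups of 2, which the series design calls independent biological replicates. Untreated wildtype and untreated mutant mice stayed on regular drinking water for 10 days. The DSS-treated groups of wildtype and of mutant mice drank 2% DSS, which injures the colonic epithelium, for 7 days, then regular water for 3 days. All mice were C57BL/6, were 10 to 12 weeks old, were housed specific-pathogen-free and were harvested on day 10. The labels call the material CD4+ T cell enriched: colon was digested with collagenase, DNase and dispase, cells were collected on Percoll and passed through a CD4+ T cell isolation kit, and 3' RNA libraries of single cells were made. The labels do not state whether a library is 1 animal. An amino acid change cannot be seen in counts per gene, so no value here checks the genotype labels.

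IL-22 belongs to the interleukin-10 family. In the gut it is made mainly by group 3 innate lymphoid cells (ILC3) and Th17 cells in answer to interleukin-23 and interleukin-1 beta, and it acts on epithelial cells through a receptor of the Il22ra1 chain and the Il10rb chain, with Stat3 as the main signal carrier. Epithelial cells respond with antimicrobial proteins, mucus components and repair. The binding protein from Il22ra2 is known as a product of dendritic cells and other myeloid cells of the intestine, and it limits IL-22 during injury.

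The libraries held 34497509 to 46960005 unique molecular identifiers (UMIs, each a captured RNA molecule). After barcodes with under 400 genes or at least 20% mitochondrial UMIs were left out, they held 34165516 to 46742000 UMIs in 10340 to 15370 barcodes. The kept barcodes numbered 96721, with a median of 1886 to 3019 UMIs per library. They were clustered without the 3 genes, other cytokines and epithelial IL-22 target genes, and 40 of 46 clusters were named from marker lists. The isolation had not left CD4 T cells alone: 60484 barcodes were T or innate lymphoid, and fibroblast-like, macrophage- and monocyte-like, B cell-like and endothelium-like barcodes made up most of the others. Any pair of libraries shared 21 to 64 barcode sequences, 1176 sequences in all. Levels are given as CPM, a gene's UMIs per 1000000 UMIs of the barcodes named, and a mean ± SD is taken over libraries.

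Il22 lies on mouse chromosome 10 at 118204942-118210047 on the plus strand of mm10, where GENCODE vM21 gives it 5 exons and a coding sequence of 537 bases (ENSMUSG00000074695). Il22ra2 lies on the same chromosome at 19621998-19634681 on the plus strand, with 5 exons and 690 coding bases (ENSMUSG00000039760). Il22ra1 lies on chromosome 4 at 135728172-135752140 on the plus strand, with 7 exons and 1743 coding bases (ENSMUSG00000037157). C57BL/6 mice carry another, nearly identical copy of Il22, named Iltifb (ENSMUSG00000090461), at 118289629-118295038 on the minus strand of chromosome 10. The coding sequences of the pair differ at 9 of 537 bases (98.3% identity), and the last 100 bases of the transcripts, where 3' libraries read, differ at 7 (93% identity). Bases 160 to 219 of both coding sequences are shown because they hold 3 of the differing bases, in capitals, and show how little separates the copies.
Il22: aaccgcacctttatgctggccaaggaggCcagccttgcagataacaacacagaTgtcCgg
Iltifb: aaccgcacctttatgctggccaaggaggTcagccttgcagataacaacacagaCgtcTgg
A read that covers no differing base fits both genes, and how such reads were counted is not given in the sources used here. Values for Il22 are therefore uncertain by what its copy could hold or take.

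The 3 genes were of very unequal abundance. Over all 100673 barcodes, Il22 had 54955 UMIs in 5356 barcodes, Il22ra2 had 982 UMIs in 166 barcodes, and Il22ra1 had 4 UMIs in 4 barcodes. Iltifb had 982 UMIs in 805 barcodes. The copy was not spread over cells as Il22 was: ILC3-like barcodes held 30075 UMIs of Il22 and 25 of Iltifb, while Th17-like barcodes held 9546 and 366. In Th17-like barcodes the mean Iltifb level was 13.0 CPM in untreated wildtype, 18.8 in untreated mutant, 10.1 in DSS-treated wildtype and 9.82 in DSS-treated mutant libraries.

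Summed over the 8 libraries, Il22 came mostly from a very small population. ILC3-like barcodes, named from Kit, Tnfsf11 and other markers of these cells, were 1.14% of kept barcodes and held 54.9% of the 54751 Il22 UMIs in them. Per library that share ran from 35.1% to 66.9%. Th17-like barcodes held 17.4% (6.92% to 36.0% per library), other T cell clusters 11.1% (7.26% to 15.6%), fibroblast-like barcodes 9.15% (2.02% to 15.5%), and all remaining barcodes 7.41%. ILC3-like barcodes thus held more Il22 UMIs than Th17-like ones in the sum, although Th17-like barcodes outnumbered them 13085 to 1101. In untreated mutant replicate 2 the order turned, with 3111 UMIs in ILC3-like and 3189 in Th17-like barcodes. CD4 enrichment removes cells without CD4, so these shares describe the enriched suspension and not the colon.

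**Figure D1:**
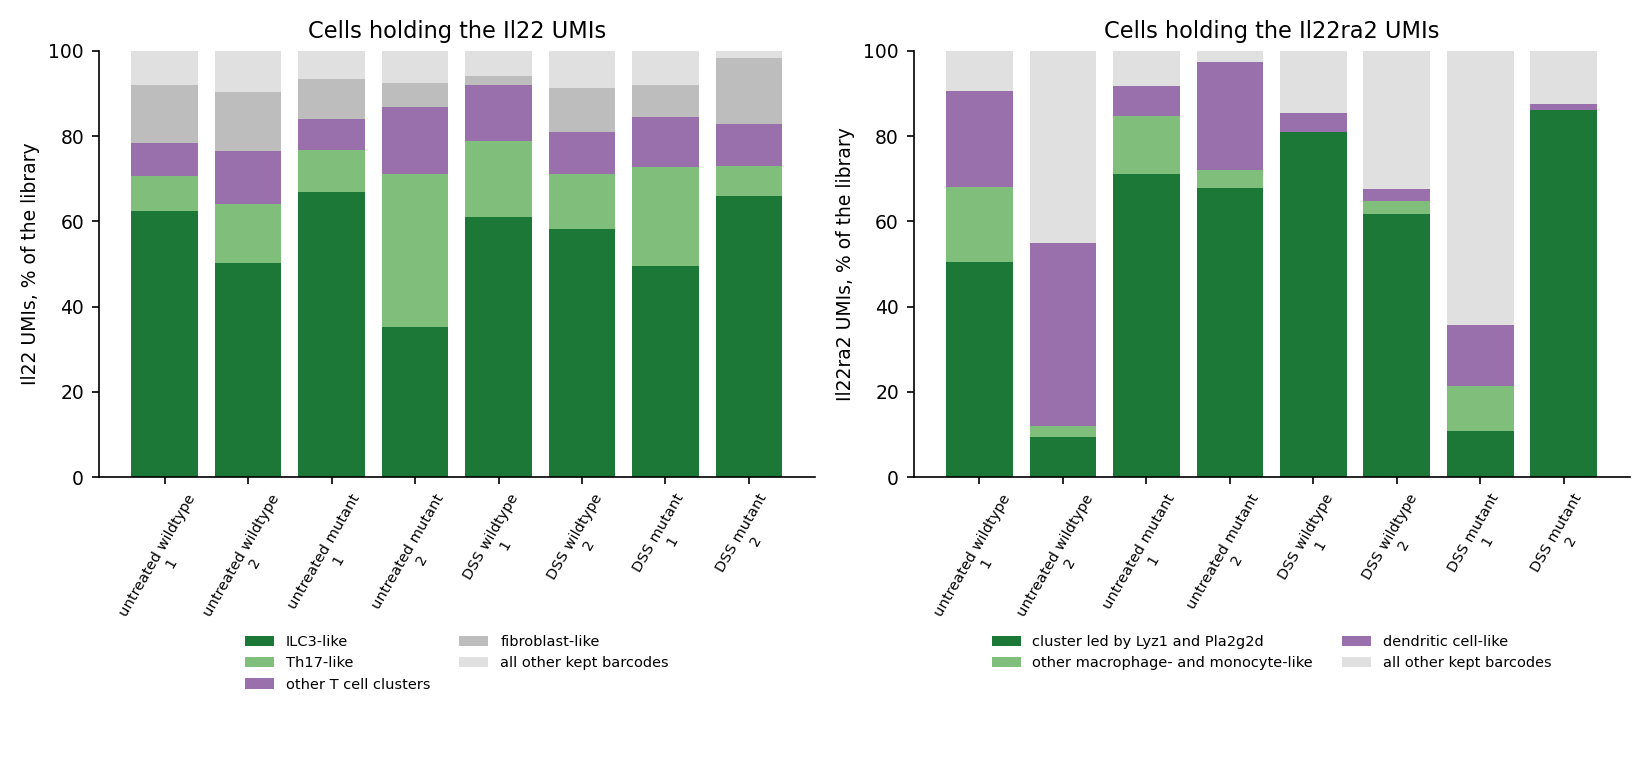
Share of the Il22 UMIs (left) and of the Il22ra2 UMIs (right) of each library, in percent, that fell in each source population, stacked to the whole for the 8 libraries. ILC3-like barcodes hold 35.1% to 66.9% of Il22 UMIs, and the cluster led by Lyz1 and Pla2g2d holds 9.27% to 86.1% of Il22ra2 UMIs.

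The level per cell followed an order with a steep first step. The mean Il22 level over the 8 libraries was 8134 ± 3093 CPM in ILC3-like barcodes (SD, n = 8, range 2538 to 12604) and 322 ± 210 CPM in Th17-like barcodes (range 88.5 to 745). The ranges of these populations did not overlap. Below them the spreads over libraries overlapped: an unnamed T cell cluster led by Tnfsf8 and Sh2d1a had 115 ± 80.7 CPM, a proliferating cluster led by Hist1h1b and Pclaf 81.3 ± 60.1, and Th1-like barcodes 54.3 ± 31.0. Treg-like barcodes had 12.0 ± 4.59 CPM, naive T-like barcodes 5.30 ± 2.62 CPM and a cluster led by Eomes and Gzmk 3.29 CPM. Fibroblast-like barcodes, which are not known to make IL-22, had 79.0 ± 29.1 CPM (range 40.1 to 130).

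**Figure D2:**
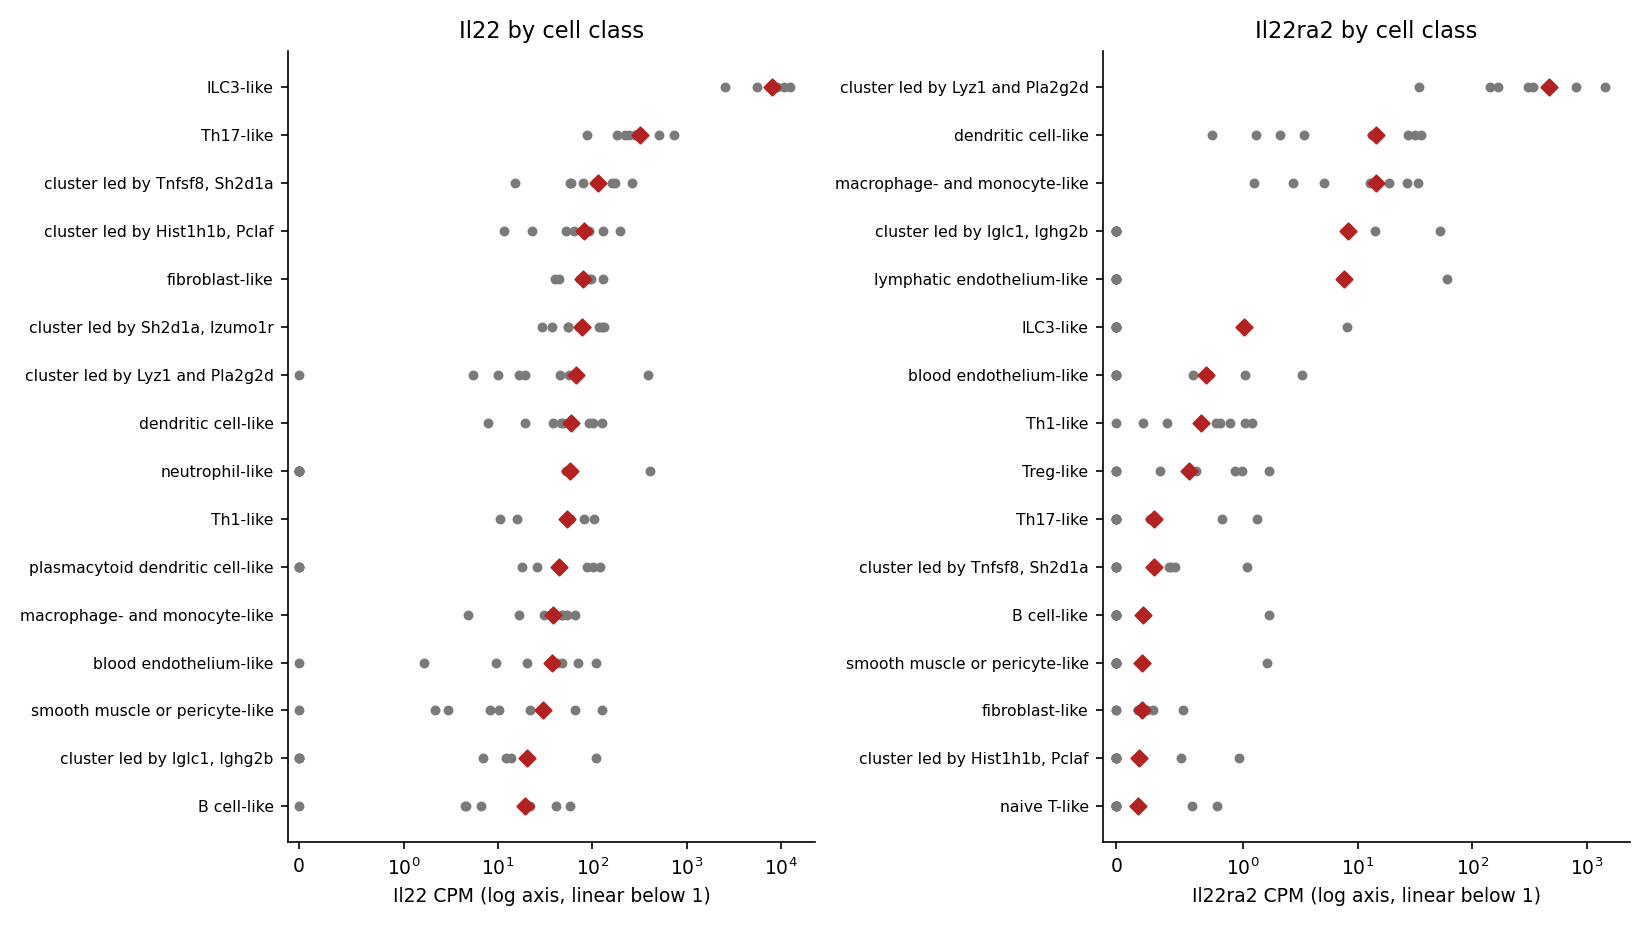
Levels of Il22 and Il22ra2 in CPM by cell population, on an axis that is logarithmic above 1 CPM and linear below it; grey points are the 8 libraries and red diamonds their means. Il22 stands highest in ILC3-like barcodes (mean 8134 CPM) and Il22ra2 in the cluster led by Lyz1 and Pla2g2d (mean 462 CPM), which is part of the macrophage- and monocyte-like population and is drawn alone as well.

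To compare shares of barcodes with an Il22 UMI at equal depth, each barcode was thinned to 1000 UMIs and shallower ones were left out, 29 of 1101 ILC3-like and 549 of 13085 Th17-like. At that depth 62.6% ± 12.5 of ILC3-like and 10.2% ± 3.98 of Th17-like barcodes held an Il22 UMI (SD, n = 8). The same share was 2.41% ± 1.21 in fibroblast-like barcodes, which serve as the reference here. Without the barcodes of highest doublet score, an alternative chosen after seeing the data, the fibroblast-like share was 1.37%, and 62.8% of ILC3-like and 10.3% of Th17-like barcodes held an Il22 UMI. Macrophage- and monocyte-like (1.16%, then 0.549% without those barcodes) and Treg-like barcodes (0.676%, then 0.626%) were below the fibroblast-like share both times. So were B cell-like (0.658%, then 0.397%) and naive T-like barcodes (0.394%, then 0.400%). The source of the Il22 UMIs in these populations was not tested, and a share below this reference does not show that a population lacks Il22. Th1-like (1.76%, then 1.73%) and dendritic cell-like barcodes (2.24%, then 1.83%) were below the fibroblast-like share with all barcodes. They were above it without those of highest doublet score, and nothing is read from them. Unnamed T cell clusters together stood at 3.61%. Without thinning the shares were 67.7% in ILC3-like, 14.5% in Th17-like and 5.58% in fibroblast-like barcodes, whose median depths were 2682, 1979 and 5245 UMIs. Thinning left out 14, 3, 9 and 3 ILC3-like barcodes and 184, 25, 131 and 209 Th17-like barcodes, in the order wildtype then mutant, first untreated and then with DSS.

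The Il22 UMIs of the fibroblast-like population were concentrated in few barcodes. In fibroblast-like barcodes, 115 of 10145 carried at least 10 Il22 UMIs and held 4130 of the population's 5011. Among these 115, a UMI of the ILC3 markers Kit and Tnfsf11 was found in 40% and 62.6%, against 2.57% and 10.7% of fibroblast-like barcodes with no Il22 UMI. The T cell genes Cd3e and Trac were each found in 41.7% of the 115, against 17.1% and 18.0%, and the median depth was 8704 UMIs against 5134. The fibroblast collagen gene Col1a1 was found in 93.9% of the 115. The doublet caller's own threshold marked no barcode in any library. Leaving out the barcodes of highest doublet score lowered the fibroblast-like barcodes with an Il22 UMI, at 1000 UMIs, from 207 of 9982 to 86 of 7884.

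Within both source populations a minority of barcodes carried most Il22. Of 1101 ILC3-like barcodes, 741 had an Il22 UMI, with a median of 23 and a maximum of 521 UMIs, and 518 had at least 10. Of 13085 Th17-like barcodes, 1895 had an Il22 UMI, with a median of 2 and a maximum of 104. The 260 Th17-like barcodes with at least 10 held 5587 of the 9546 UMIs. A Kit UMI was present in 25.8% of these 260, against 6.42% of Th17-like barcodes with no Il22 UMI, so part of the strongest Il22 barcodes named Th17-like carried an ILC3 marker. Tnfsf11 was found in 32.3% against 24.0%. The T cell genes were more frequent in the 260 as well, Cd3e in 56.2% against 44.6% and Trac in 54.6% against 46.05%. Their median depth was 2504 UMIs against 1941.

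The ILC3 name was checked against T cell receptor genes. A UMI of a CD3 chain or a T cell receptor constant gene was found in 619 of 1101 ILC3-like barcodes (56.2%) and in 97.7% of Th17-like ones, against 39.2% of fibroblast-like and 15.6% of B cell-like barcodes. Of the ILC3-like barcodes, 444 (40.3%) were on the list of CD4 T cells that the authors deposited. That list held 36.5% of Th17-like, 16.7% of fibroblast-like and 4.07% of B cell-like barcodes. The 482 ILC3-like barcodes without such a UMI had the higher Il22 level, 12519 CPM against 5919 CPM in the 619 with one, both summed over libraries. In DSS-treated wildtype replicate 2 the order turned: the barcodes without such a UMI were at 4675 CPM and all ILC3-like barcodes at 5653. Kit was found in 66.6% and Tnfsf11 in 83.0% of the ILC3-like barcodes with at least 10 Il22 UMIs, against 62.8% and 33.6% of those with no Il22 UMI. The T cell genes Cd3e and Trac were each found in 20.8% of the former, against 11.9% and 14.2%. The median depth was 2981 UMIs against 2377.

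Th17-like barcodes were 2 clusters of unequal Il22. In the cluster led by Il17a and Il17f, Il22 was at 385 and 495 CPM in untreated wildtype, 858 and 1081 in untreated mutant, 445 and 296 in DSS-treated wildtype, and 306 and 93.0 in DSS-treated mutant libraries. In the cluster led by Trat1 and Actn2 it stayed between 68.6 and 134 CPM in all 8. The Il17a cluster made up 47.9% to 70.2% of Th17-like barcodes per library.

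Barcodes with Il22 mostly held Il17a as well among Th17-like ones and mostly lacked Th17 cytokines among ILC3-like ones. At 1000 UMIs, 77.3% of 1270 Th17-like barcodes with an Il22 UMI also had one of Il17a, against 46.2% of Th17-like barcodes without Il22. For Il17f the shares were 29.8% and 11.4%, and for Ifng, the interferon of Th1 cells, 20.9% and 13.8%. In 664 ILC3-like barcodes with Il22 the shares were 8.43% for Il17a, 8.58% for Il17f and 3.01% for Ifng, and 82.7% had none of the 3 cytokines. In Th17-like barcodes 17.9% had none. These are counts over barcodes of 8 libraries and carry no test. No share of ILC3-like barcodes without Il22 is set beside those with it. The Th17-like cluster led by Il17a and Il17f was above the other in both Il22 and Il17a, and the shares were not split by cluster.

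Across the 46 clusters, the genes whose level was most like that of Il22 were Il17f (r = 0.814), Il17a (0.786), Apol7b (0.783), Tnfsf11 (0.779) and Nmrk1 (0.771). Here r is Pearson's correlation of log2(CPM + 1) over clusters, among 12809 genes. Il17f and Il17a were highest in the Il17a cluster of Th17-like barcodes, Tnfsf11 and Apol7b in the ILC3-like cluster, where Il22 peaked too. The clusters share libraries and were built from the same cells, so r is a description.

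In Th17-like cells Il22 was high in the untreated mutant and fell with DSS there. Its level was 224 and 289 CPM in untreated wildtype, 515 and 745 in untreated mutant, 285 and 184 in DSS-treated wildtype, and 247 and 88.5 in DSS-treated mutant libraries, from 654 to 3686 barcodes each. Both untreated mutant libraries lay above the other 6, which overlapped with each other. How many of all genes order the libraries this way was not counted, here or below, so such orders are descriptions only. The group means were 256 ± 46.3, 630 ± 163, 235 ± 71.9 and 168 ± 112 CPM (SD, n = 2 each).

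The comparison of DSS with no treatment within the mutant gave a log2 fold change of -1.95 ± 0.35 (SE; edgeR quasi-likelihood test, Benjamini-Hochberg adjusted p = 0.0111). In that comparison 5.3% of the 9609 genes tested passed adjusted p 0.05, 2.53% higher and 2.77% lower. When a library is left out its group has 1 library, which is assumed to vary like the other groups. Without replicate 2 of the untreated mutant the fall was -1.65 and was no longer called by edgeR (adjusted p = 0.102), and it was -2.91 without replicate 1 of the DSS-treated mutant. Over all alternatives the log2 fold change ran from -2.91 to -1.43, and DESeq2 gave -1.98 (DESeq2 adjusted p = 0.0126). Without the Th17-like barcodes that held a Kit UMI the value was -1.78 (edgeR adjusted p = 0.00999).

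The mutant was compared with wildtype before treatment, where Il22 in Th17-like cells differed by 1.27 ± 0.34 on the log2 scale (edgeR unadjusted p = 0.00234, adjusted p = 0.468). No gene of the 9609 tested passed edgeR's adjusted threshold there (0%), 486 had an unadjusted p under 0.05, and DESeq2 called 5. The Il22 difference was called when only the 4 untreated libraries were fitted (1.28, edgeR adjusted p = 0.00134), and without replicate 1 (1.28, 0.043) or replicate 2 (1.27, 0.0443) of the DSS-treated mutant. It was also called by edgeR with all 8 libraries and no filter on low counts, at the same value (1.27, edgeR adjusted p = 1.64e-12). Of the values that answer a comparison, that setting turned 16 into calls and left 24 on their side of the threshold. DESeq2 gave 1.27 as well and did not call it (DESeq2 unadjusted p = 0.0263). Nor was the Il22 difference called with RLE size factors, at least 800 genes per barcode or resolution 0.5, or without the barcodes of highest doublet score. The cause of these changes was not tested. The DSS effect differed between genotypes by -1.78 ± 0.48 on the log2 scale (edgeR unadjusted p = 0.0025, adjusted p = 1). Without replicate 1 of the DSS-treated mutant that difference was -2.75 and was called (edgeR adjusted p = 0.0119). DSS in wildtype gave -0.16 ± 0.34 (edgeR adjusted p = 0.862), and mutant against wildtype after DSS gave -0.51 ± 0.34 (edgeR adjusted p = 1).

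In ILC3-like cells Il22 stood above every other population and varied within groups. Its level was 9110 and 8757 CPM in untreated wildtype, 12604 and 7789 in untreated mutant, 10935 and 5653 in DSS-treated wildtype, and 7686 and 2538 in DSS-treated mutant libraries, from 108 to 170 barcodes each. Both DSS-treated mutant libraries lay below the untreated libraries of either genotype, and replicate 2 was the lowest of all 8. The group means were 8934 ± 249, 10196 ± 3404, 8294 ± 3735 and 5112 ± 3640 CPM (SD, n = 2 each). At 1000 UMIs the share of ILC3-like barcodes with Il22 was 37.1% in that lowest library and 58.4% to 79.0% in the other 7.

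With all 8 libraries and the filter on low counts, no comparison of Il22 in ILC3-like cells passed the threshold. With no such filter edgeR called DSS in the mutant (-1.09, adjusted p = 3.43e-10), mutant against wildtype after DSS (-0.69, adjusted p = 0.00768) and the difference of the DSS effects (-0.89, adjusted p = 0.0153). DSS against no treatment gave -0.16 ± 0.33 in wildtype (edgeR adjusted p = 0.921) and -1.11 ± 0.33 in the mutant (edgeR unadjusted p = 0.00304, adjusted p = 0.151), where 0.538% of 5945 genes were called in either direction. The fall in the mutant was called without replicate 2 of the untreated mutant (-1.44, edgeR adjusted p = 0.0312) and without replicate 1 of the DSS-treated mutant (-2.12, edgeR adjusted p = 2.38e-05). Mutant against wildtype gave 0.23 ± 0.33 untreated (edgeR adjusted p = 0.998) and -0.72 ± 0.33 after DSS (edgeR adjusted p = 0.999). Without replicate 1 of the DSS-treated mutant the latter was -1.74 (edgeR adjusted p = 0.00254), and the difference of the DSS effects, -0.95 with all libraries (edgeR adjusted p = 0.956), was -1.957 (edgeR adjusted p = 0.00204). In the ILC3-like barcodes without a T cell receptor UMI, DSS in the mutant gave -1.33 (edgeR adjusted p = 0.133).

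**Figure D3:**
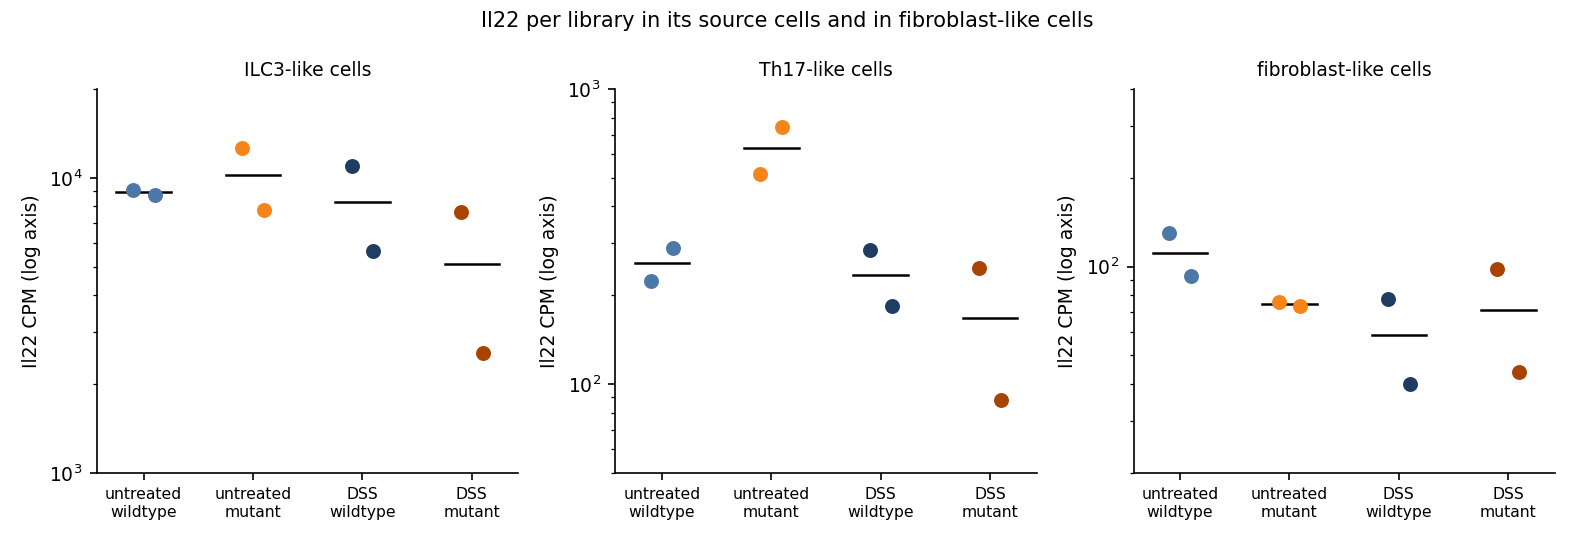
Il22 level in CPM, on a logarithmic axis, in each of the 8 libraries for ILC3-like, Th17-like and fibroblast-like barcodes; points are libraries and bars the mean of a group of 2. In Th17-like barcodes the untreated mutant libraries (515 and 745 CPM) lie above the other 6.

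A heat-shock signal moved with the untreated mutant group. The summed level of Hspa1a, Hspa1b, Dnajb1 and Hsph1, chaperone genes that respond to stress, was 452 and 861 CPM in untreated wildtype, 2939 and 1737 in untreated mutant, 821 and 894 in DSS-treated wildtype, and 809 and 1337 in DSS-treated mutant Th17-like barcodes. In ILC3-like barcodes the same sum was 514 and 787, 7419 and 2086, 2059 and 1704, and 1209 and 2479 CPM in that order. The untreated mutant libraries were the highest in Th17-like barcodes, and replicate 1 of that group was the highest in ILC3-like ones. All 4 genes were detected in each population. The part of this signal in the comparisons that use the untreated mutant was not tested.

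Summed over all T and innate lymphoid barcodes, Il22 was at 354 and 364 CPM in untreated wildtype, 549 and 466 in untreated mutant, 309 and 139 in DSS-treated wildtype, and 299 and 90.8 in DSS-treated mutant libraries. The 4 DSS libraries lay below the 4 untreated ones. In such sums fewer cells of a producing type and less RNA per cell cannot be told apart. DSS gave -0.75 ± 0.50 in wildtype (edgeR adjusted p = 0.417) and -1.47 ± 0.50 in the mutant (edgeR unadjusted p = 0.0167, adjusted p = 0.0924), and only the latter became a call, without replicate 1 of the DSS-treated mutant (-2.58, edgeR adjusted p = 0.0309), when a library was left out.

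The authors listed 27420 barcodes as CD4 T cells, and those of them in T cell clusters are called the CD4 list here. Listed barcodes of other clusters were left out, among them 444 ILC3-like, 1694 fibroblast-like and 178 B cell-like ones. Il22 on the CD4 list was at 50.1 and 144 CPM in untreated wildtype, 141 and 315 in untreated mutant, 104 and 46.2 in DSS-treated wildtype, and 143 and 21.7 in DSS-treated mutant libraries. All groups overlapped with at least 1 other. DSS in the mutant gave -1.59 ± 0.77 (edgeR adjusted p = 0.214) and mutant against wildtype before treatment gave 1.24 ± 0.76 (edgeR adjusted p = 0.955). The latter was 0.67 without replicate 1 and 2.20 without replicate 2 of untreated wildtype, and 0.52 without replicate 2 of untreated mutant. Without replicate 1 of the DSS-treated mutant the DSS value was -3.47 (edgeR adjusted p = 0.0318).

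The other genes of the pathway in the source cells were read from lists of ligands, receptor chains, signalling genes, regulators, inducing cytokines and co-produced cytokines. In Th17-like cells with DSS in the mutant, where 2.77% of all genes were called lower, Il22 was the 1 ligand called of 3 tested (of 8 listed). Among the 14 regulators 1 fell: Il23r, the receptor chain for the inducing interleukin-23, by -1.20 ± 0.31 (edgeR adjusted p = 0.0436). Of 6 co-produced cytokines tested 2 fell, Ifng by -0.74 ± 0.16 (edgeR adjusted p = 0.0226) and Il21, a cytokine of helper T cells, by -1.08 ± 0.28 (edgeR adjusted p = 0.0415). None of the 6 signalling genes and none of the 2 tested receptor chains was called. Il1b, which encodes the inducing interleukin-1 beta, rose by 2.12 ± 0.47 (edgeR adjusted p = 0.0247), 1 of 3 inducing cytokines tested and set against 2.53% of all genes called higher.

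Il23r in Th17-like cells was at 51.0 and 46.8 CPM in untreated wildtype, 56.7 and 68.0 in untreated mutant, 46.4 and 24.0 in DSS-treated wildtype, and 37.4 and 14.3 in DSS-treated mutant libraries. The 4 DSS libraries lay below the 4 untreated ones. Il1b is chiefly a myeloid gene, and 7 macrophage marker genes, all detected, summed to 94.5 and 70.2, 85.6 and 40.4, 74.7 and 256, and 149 and 103 CPM in Th17-like barcodes of the 4 groups in the order above. Their part in the Il1b value was not tested.

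Il17a, the defining cytokine of Th17 cells, passed no test in these cells with DSS in the mutant. It was at 1304 and 1213 CPM in untreated wildtype, 1679 and 3008 in untreated mutant, 2204 and 1734 in DSS-treated wildtype, and 2993 and 1324 in DSS-treated mutant libraries, and the mutant groups overlapped. DSS in the mutant gave -0.19 for Il17a (edgeR adjusted p = 0.733) and -1.05 for Il17f (edgeR adjusted p = 0.0699).

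Of the same lists in ILC3-like cells, Il1b alone passed, with DSS in wildtype, by 3.097 ± 0.50 (edgeR adjusted p = 0.00932), where 0.0336% of all genes were called higher. Its levels were 31.5 and 2.23 CPM in untreated and 162 and 161 CPM in DSS-treated wildtype libraries. Summed macrophage markers in these barcodes were 83.5 and 71.3 against 83.3 and 256 CPM.

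Over T and innate lymphoid cells together with DSS in the mutant, 4.46% of 12734 genes were called higher and 4.02% lower. Of 7 co-produced cytokines 3 fell, Csf2, a growth factor for myeloid cells, by -1.996, Ifng by -0.85 and Il21 by -1.26 (edgeR adjusted p = 0.0201, 0.0241 and 0.0246). Of 14 regulators Il6ra, a chain of the interleukin-6 receptor, fell by -0.70 (edgeR adjusted p = 0.0251). Of 6 signalling genes the kinase gene Tyk2 rose by 0.66 and the feedback inhibitor Socs1 fell by -0.68 (edgeR adjusted p = 0.0312 and 0.022). Of 4 inducing cytokines tested Il6 rose by 2.58 (edgeR adjusted p = 0.0349).

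On the CD4 list, the listed barcodes in T cell clusters, the same comparison called 2.3% of 11053 genes higher and 2.74% lower. Tyk2 rose by 0.67 (edgeR adjusted p = 0.0419). Socs1 fell by -0.77, Il6ra by -0.93, Il21 by -1.44 and Ifng by -0.98 (edgeR adjusted p = 0.0246, 0.0388, 0.0136 and 0.0318). These barcodes are a part of the T and innate lymphoid barcodes above and are not a separate measurement.

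The receptor chain Il22ra1 was at the edge of detection. Its 4 UMIs among 347566245 amount to 0.0115 CPM, and none lay in a T cell, innate lymphoid or myeloid population. All 4 fell in a cluster of 531 squamous epithelium-like barcodes, in which the squamous keratin genes Krt14 and Krt5 were found in 77.0% and 75.7%, Epcam in 70.8% and Lgals4, a marker of columnar gut epithelium, in 15.1%. The cluster held 7, 3, 90, 1, 44, 179, 127 and 80 barcodes in the 8 libraries, taken as replicate 1 and 2 of wildtype and mutant, first untreated and then with DSS.

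Of the 4 barcodes with Il22ra1, the 1 of untreated wildtype replicate 2 had 60 UMIs of Lgals4, 45 of Krt8 and 27 of Epcam and none of the squamous markers. The other 3, of DSS-treated wildtype replicate 1 and DSS-treated mutant replicate 1, carried Krt5 and Krt14. Only 56 barcodes of the cluster had a gut epithelial marker and no squamous one. They were 6 of 7 and 3 of 3 in untreated wildtype, 30 of 90 and 1 of 1 in untreated mutant, 7 of 44 and 4 of 179 in DSS-treated wildtype, and 5 of 127 and 0 of 80 in DSS-treated mutant libraries, so means over libraries in this cluster mix different cells. No cluster of columnar epithelium formed. The columnar epithelium on which IL-22 is known to act was thus nearly absent from the libraries, and Il22ra1 could not be tested between groups. In the whole squamous cluster 3 UMIs would be 0.409 CPM, and a difference between groups at this depth was not detectable.

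Il10rb, the chain that Il22ra1 pairs with and that the interleukin-10 receptor shares, was widespread, with 14133 UMIs in 11821 barcodes. Its mean level was 113 ± 33.5 CPM in macrophage- and monocyte-like, 116 ± 62.5 in neutrophil-like, 42.5 ± 4.71 in Treg-like, 42.7 ± 8.99 in dendritic cell-like, 36.8 ± 6.40 in fibroblast-like, 26.3 ± 6.77 in ILC3-like, 18.3 ± 2.89 in Th17-like and 9.41 ± 6.77 in squamous epithelium-like barcodes (SD, n = 8). Every macrophage- and monocyte-like library (76.1 to 164 CPM) lay above all Treg-like libraries (36.0 to 49.4), while the neutrophil-like range, 0 to 180 CPM from few barcodes, spanned both. In macrophage- and monocyte-like cells DSS gave 0.47 ± 0.20 in wildtype and 0.55 ± 0.20 in the mutant (edgeR adjusted p = 0.233 and 0.0866).

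Summed over the 8 libraries, most Il22ra2 UMIs lay in few myeloid barcodes. Of 965 UMIs in kept barcodes, 56.3% lay in a macrophage-like cluster of 170 barcodes led by Lyz1 and Pla2g2d, 18.8% in dendritic cell-like barcodes, 8.50% in the other macrophage- and monocyte-like barcodes and 16.5% elsewhere. The shares differed between libraries: from 9.27% to 86.1% lay in the Lyz1 and Pla2g2d cluster, from 1.39% to 43.0% in dendritic cell-like barcodes and from 2.73% to 64.3% elsewhere, the last being replicate 1 of the DSS-treated mutant with 28 UMIs in all. The share of barcodes with a UMI was 20% in the Lyz1 and Pla2g2d cluster (34 of 170) and 1.59% in dendritic cell-like barcodes (25 of 1568), against 0.128% in fibroblast-like barcodes (13 of 10145) and 0.0794% in T and innate lymphoid ones (48 of 60484). Median depth was 6275 UMIs in dendritic cell-like and 5245 in fibroblast-like barcodes. Of the remainder, 45 UMIs sat in 2 lymphatic endothelium-like barcodes of 1 library.

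The mean level was 462 ± 461 CPM in the Lyz1 and Pla2g2d cluster, 14.4 ± 14.7 in dendritic cell-like and 14.3 ± 11.5 in all macrophage- and monocyte-like barcodes, and 0.202 ± 0.168 in fibroblast-like ones (SD, n = 8). The ranges of the cluster (34.4 to 1444 CPM) and of dendritic cell-like barcodes (0.754 to 35.3 CPM) overlapped over libraries only at their ends. Il22ra2 was among the leading genes of the cluster although it was not used to build it, and the cluster was singled out after its values were seen.

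The barcodes that carried most of the Il22ra2 were few in both populations. In dendritic cell-like barcodes 8 with at least 10 UMIs held 135 of 181, and all 8 had a UMI of Ccr7, the receptor of migrating mature dendritic cells, while 87.5% had Flt3, the growth factor receptor of dendritic cells, and none had Cd209a. In dendritic cell-like barcodes without Il22ra2 these shares were 66.9%, 31.6% and 16.3%. The 8 also held myeloid genes that are not particular to dendritic cells: all had Lyz2 and 37.5% had the macrophage complement gene C1qa, against 44.5% and 11.7% of those without Il22ra2. In the Lyz1 and Pla2g2d cluster 18 such barcodes held 501 of 543 UMIs. All 18 had C1qa and Lyz2, and none had Flt3.

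Across the 46 clusters the genes most like Il22ra2 were Il4i1 (r = 0.697), an amino acid oxidase gene of mature dendritic cells and macrophages, Gm13571 (0.627), 1110032F04Rik (0.626), 2900052N01Rik (0.620) and Il12b (0.594), which encodes the subunit shared by interleukin-12 and interleukin-23. Il4i1, 1110032F04Rik and Il12b were highest in a dendritic cell-like cluster, Gm13571 and 2900052N01Rik in the Lyz1 and Pla2g2d cluster. Il22ra1 had too few UMIs for such a measure.

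In dendritic cell-like cells Il22ra2 fell with DSS in both genotypes. Its level was 31.3 and 35.3 CPM in untreated wildtype, 13.2 and 27.5 in untreated mutant, 2.10 and 0.754 in DSS-treated wildtype, and 3.42 and 1.30 in DSS-treated mutant libraries. All 4 untreated libraries lay above all 4 DSS libraries. The values rest on 45, 65, 16 and 46 UMIs in 4, 6, 3 and 5 barcodes before treatment and on 3, 1, 4 and 1 UMIs in 3, 1, 2 and 1 barcodes after DSS, out of 84 to 249 barcodes per library. The group means were 33.3 ± 2.82, 20.3 ± 10.1, 1.43 ± 0.950 and 2.36 ± 1.50 CPM (SD, n = 2 each).

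DSS against no treatment gave -4.47 ± 0.54 in wildtype (SE; edgeR adjusted p = 0.00177), where 2.15% of 8321 genes were called in either direction and 1.07% lower. The direction held in each alternative, with -5.32 without replicate 1 of the DSS-treated wildtype. DESeq2 gave no adjusted p in either genotype. Il22ra2 passed the filter on low counts through the untreated libraries alone, where it was high, so the filter favoured a fall with DSS. In the mutant the value was -3.11 ± 0.58 (edgeR adjusted p = 0.00918), where 4.58% of genes were called, 2.2% higher and 2.38% lower. The mutant call was lost without replicate 2 of the untreated mutant (-2.46, edgeR adjusted p = 0.0823) and without replicate 2 of the DSS-treated mutant (-2.67, edgeR adjusted p = 0.0594), and the value was -4.11 without replicate 1 of the latter. The fit treats UMIs that sit in a handful of barcodes as counts of a library, and with 2 libraries a group the barcode number behind each value stays small.

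Mutant and wildtype were not told apart. The difference was -0.64 ± 0.34 before treatment and 0.72 ± 0.96 after DSS (edgeR adjusted p = 1 for both), and the DSS effects differed by 1.36 ± 1.04 (edgeR adjusted p = 0.999). With errors of this size, missing the threshold does not show that the genotypes were alike.

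The makeup of the dendritic cell-like population shifted with DSS. A cluster that held 1 of the 181 UMIs had 91 and 113 barcodes in untreated wildtype, 59 and 77 in untreated mutant, 23 and 20 in DSS-treated wildtype and 36 and 6 in DSS-treated mutant libraries. In the cluster led by Cd209a, which held 131 UMIs, Il22ra2 was at 149 and 212 CPM in untreated wildtype, 69.0 and 30.2 in untreated mutant, 10.3 and 2.18 in DSS-treated wildtype, and 3.17 and 13.4 in DSS-treated mutant libraries. The untreated libraries were above the DSS libraries within that cluster, where the 30.2 CPM of untreated mutant replicate 2 came from 1 barcode with 7 UMIs. Of the cluster's 473 barcodes 16 held an Il22ra2 UMI, and a shift of makeup within it was not tested. None of the 8 dendritic cell-like barcodes with at least 10 Il22ra2 UMIs had Cd209a. In the cluster led by Ccl17 and Ccl22, with 30 UMIs, the groups overlapped: the untreated libraries had 0, 9.06, 11.9 and 52.8 CPM and the DSS libraries 1.26, 0, 6.60 and 0. In the cluster led by Ccl22 and Fscn1 the 19 UMIs lay in 3 barcodes of untreated mutant replicate 2 (77.0 CPM).

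Markers of the population itself were summed beside it. Over 7 conventional dendritic cell genes, all detected, the summed level was 378 and 397 CPM in untreated wildtype, 423 and 391 in untreated mutant, 330 and 361 in DSS-treated wildtype, and 439 and 234 in DSS-treated mutant libraries. For 6 mature dendritic cell genes it was 1637 and 1333, 1720 and 1726, 1934 and 2039, and 1930 and 2457 CPM. The DSS libraries thus had the higher mature marker level and the lower Il22ra2 level. Heat-shock genes summed to 377 and 823, 3660 and 1404, 595 and 766, and 622 and 1203 CPM in these barcodes, and their part in the mutant comparison was not tested.

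**Figure D4:**
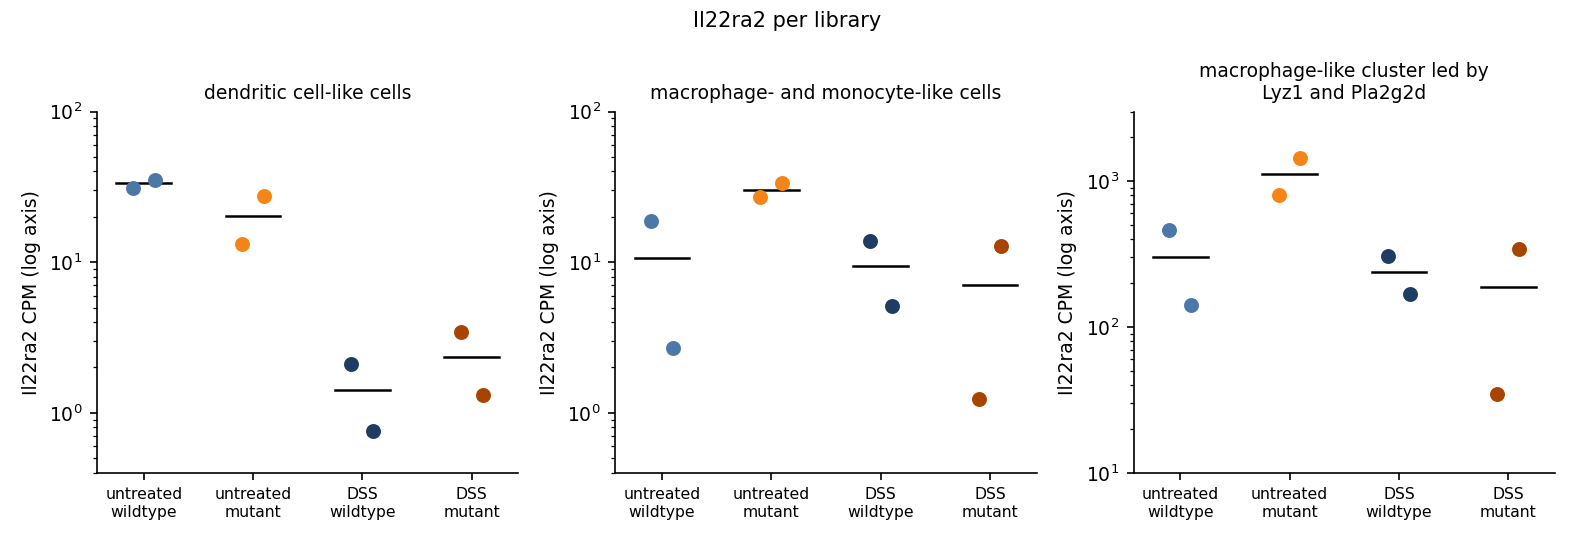
Il22ra2 level in CPM, on a logarithmic axis, in each of the 8 libraries for dendritic cell-like barcodes, macrophage- and monocyte-like barcodes and the cluster led by Lyz1 and Pla2g2d; points are libraries and bars the mean of a group of 2. In dendritic cell-like barcodes the 4 untreated libraries (13.2 to 35.3 CPM) lie above the 4 DSS libraries (0.754 to 3.42 CPM).

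In macrophage- and monocyte-like cells Il22ra2 varied widely between replicates. It was at 18.6 and 2.69 CPM in untreated wildtype, 27.0 and 33.3 in untreated mutant, 13.8 and 5.09 in DSS-treated wildtype, and 1.24 and 12.9 in DSS-treated mutant libraries. Both untreated mutant libraries were above the other 6. DSS gave -0.35 ± 0.80 in wildtype (edgeR adjusted p = 0.846) and -2.28 ± 0.78 in the mutant (edgeR unadjusted p = 0.013, adjusted p = 0.0732), and mutant against wildtype before treatment gave 1.48 ± 0.71 (edgeR adjusted p = 0.884), with 3.44 without replicate 1 and 0.69 without replicate 2 of untreated wildtype. The mutant DSS value was called without replicate 2 of the DSS-treated mutant (-4.72, edgeR adjusted p = 0.0316).

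The Lyz1 and Pla2g2d cluster, which held most of these UMIs, was at 461 and 142 CPM in untreated wildtype, 797 and 1444 in untreated mutant, 307 and 168 in DSS-treated wildtype, and 34.4 and 341 in DSS-treated mutant libraries. These come from 33, 13, 21, 10, 24, 25, 23 and 21 barcodes, of which 8, 1, 9, 3, 5, 4, 2 and 2 had a UMI. Both untreated mutant libraries were above the other 6. This is not a second observation, since the cluster is part of the macrophage- and monocyte-like population. It held 163 of that population's 194 Il22ra2 UMIs in untreated mutant replicate 1 and 124 of 132 in replicate 2. DSS in the mutant gave -2.63 ± 0.62 (edgeR unadjusted p = 0.000716, adjusted p = 0.118) and mutant against wildtype before treatment gave 1.91 ± 0.59 (edgeR unadjusted p = 0.00572, adjusted p = 0.538). The DSS value was called by edgeR when any of 5 libraries was left out: replicate 1 (-2.62, adjusted p = 0.0444) or replicate 2 (-2.64, 0.0272) of untreated wildtype, replicate 1 of untreated mutant (-3.02, 0.00837), replicate 2 of DSS-treated wildtype (-2.64, 0.0499) or replicate 2 of DSS-treated mutant (-5.17, 0.0285).

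Heat-shock genes were high in the untreated mutant here as well, with summed levels of 1219 and 2034 CPM in untreated wildtype, 10010 and 5850 in untreated mutant, 2026 and 820 in DSS-treated wildtype and 920 and 1359 in DSS-treated mutant macrophage- and monocyte-like barcodes. The part of that signal in the Il22ra2 values of the untreated mutant was not tested.

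Over all barcodes of a library, Il22ra2 averaged 3.91 CPM in untreated wildtype, 4.75 in untreated mutant, 1.46 in DSS-treated wildtype and 1.09 in DSS-treated mutant libraries. DSS gave -1.42 ± 0.47 in wildtype (edgeR adjusted p = 0.148) and -2.10 ± 0.48 in the mutant (edgeR adjusted p = 0.0572). The latter was called by DESeq2 (adjusted p = 0.000873), and by edgeR without replicate 1 (-2.10, adjusted p = 0.0341) or replicate 2 (-2.10, adjusted p = 0.0339) of DSS-treated wildtype. Il22 over all barcodes averaged 175, 207, 146 and 112 CPM in the 4 groups, with -0.26 for DSS in wildtype and -0.86 in the mutant (edgeR adjusted p = 0.823 and 0.354). The mutant value was -1.89 without replicate 1 and -0.26 without replicate 2 of the DSS-treated mutant.

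**Figure D5:**
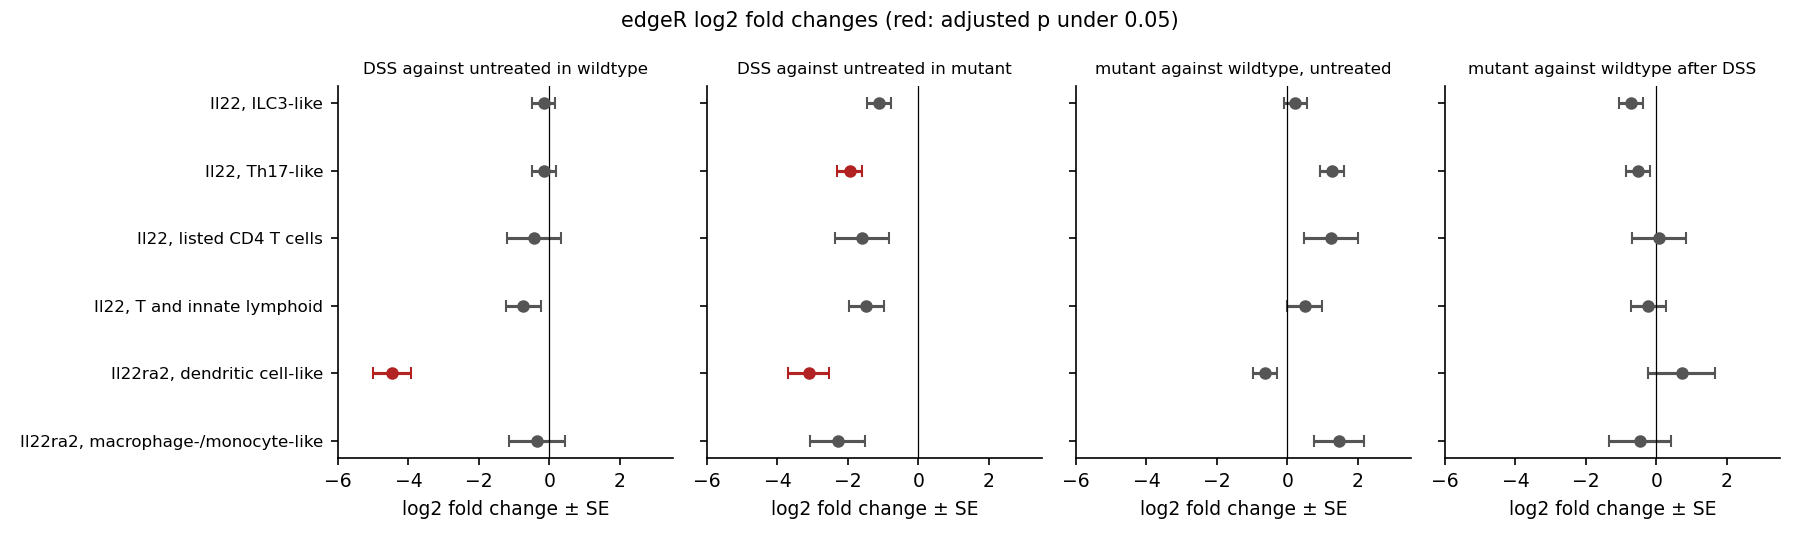
Log2 fold changes (points) with their standard errors (bars) for Il22 and Il22ra2 in 6 populations, in 4 panels for DSS against untreated in wildtype and in mutant and for mutant against wildtype untreated and after DSS; red marks an edgeR adjusted p under 0.05. The 3 red values are Il22 in Th17-like cells with DSS in the mutant (-1.95) and Il22ra2 in dendritic cell-like cells with DSS in wildtype (-4.47) and in the mutant (-3.11).

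The pathway lists in the myeloid cells gave few calls. In dendritic cell-like cells with DSS in the mutant, Stat3, which carries the IL-22 and interleukin-10 signals, rose by 0.68 ± 0.17 as 1 of 6 signalling genes (edgeR adjusted p = 0.0365), and Maf, a transcription factor gene, rose by 1.17 ± 0.26 as 1 of 13 regulators (edgeR adjusted p = 0.023). In that comparison 2.2% of genes were called higher and 2.38% lower. Il22ra2 was the 1 receptor family gene of 3 tested that was called, lower in each genotype, where 1.07% of genes were called lower in wildtype. It passed the filter on low counts through the untreated libraries alone, which favoured a fall, so its call says nothing about the receptor family. In macrophage- and monocyte-like cells with DSS in the mutant, where 6.6% of 10835 genes were called higher, Stat3 rose by 0.61 ± 0.17 and Il18bp, which encodes a binding protein of interleukin-18, by 1.02 ± 0.29 (edgeR adjusted p = 0.0384 and 0.0414).

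Genes that IL-22 is known to induce in epithelium were found in several populations. Of the named populations, squamous epithelium-like barcodes held the most UMIs of Retnlb (1032), Dmbt1 (322), Reg3b (110) and Reg3g (45), and groups were not compared in them. In macrophage- and monocyte-like cells with DSS in the mutant, where 6.6% of genes were called higher, 4 of 7 tested (17 listed) rose: S100a9 by 9.33 ± 1.88, S100a8 by 6.30 ± 1.65, Lcn2 by 3.36 ± 0.94 and Nos2 by 1.76 ± 0.49 (edgeR adjusted p = 0.0151, 0.0316, 0.0388 and 0.0375). Different clusters held this population in the groups compared. A monocyte-like cluster led by Chil3 and Clec4e, with S100a8 among its leading genes, had 5 and 4 barcodes in untreated and 238 and 169 in DSS-treated mutant libraries. A macrophage-like cluster led by Ccl8 and Pf4 had 228 and 174, then 53 and 11. The part of this shift in the 4 values was not tested. S100a8, S100a9 and Lcn2 are also abundant granulocyte genes, and neutrophil-like barcodes had S100a9 at a mean of 56381 CPM against 99.8 CPM in squamous epithelium-like ones. Over all barcodes 13 of the 17 were tested. S100a9 rose with DSS in wildtype by 4.36 ± 0.65 (edgeR adjusted p = 0.0429), where 0.411% of 16565 genes were called higher.

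In the mutant, where 1.68% of genes were called higher over all barcodes, S100a9 rose by 5.23 ± 0.68, S100a8 by 5.05 ± 0.76 and Lcn2 by 1.83 ± 0.34 (edgeR adjusted p = 0.0266, 0.0402 and 0.0447). Tyk2 rose by 0.77 ± 0.13 and Maf by 0.87 ± 0.16 in the same comparison (edgeR adjusted p = 0.0422 and 0.0447). The antimicrobial genes Reg3b and Reg3g, which are textbook epithelial answers to IL-22, had mean levels of 11.9 ± 19.3 and 9.70 ± 14.5 CPM in squamous epithelium-like barcodes (SD, n = 8), with libraries at 0.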

How the data were processed

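RNA of single cells from 8 libraries of colonic lamina propria, enriched for CD4+ T cells, was measured with 3' UMI libraries. The deposited files hold raw counts, UMIs per gene and barcode, without normalization, and a list of barcodes that the authors called CD4 T cells. Cell Ranger 3.1.0, Seurat 4.0.1 and the build mm10 are named in the submitters' processing notes; how reads that fit 2 genes were counted is not given in the sources used here. Of 30934 identifiers, 30468 (98.5%) matched the symbol in the annotation.

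Barcodes with at least 400 genes and under 20% mitochondrial UMIs were kept and clustered with scanpy 1.11.5 (Leiden, resolution 1, log-normalized counts, without the 3 genes, other cytokines and epithelial target genes). Lymphoid barcodes were clustered again by themselves. So were myeloid barcodes, in a step added after the first clusters were seen. Clusters were named from marker lists, with thresholds set after clusters were seen. No doublet was removed: the caller's own threshold marked 0 barcodes.

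Counts were summed per library and population, and edgeR 4.0.16 (R 4.3.3; TMM, filterByExpr, quasi-likelihood test) was fitted to 4 groups of 2 libraries with 5 comparisons per population, adjusted by Benjamini-Hochberg over all genes tested. A call means adjusted p under 0.05. An exact permutation test of 2 libraries against 2 cannot go below 0.333 and was not used. The script was tested on simulated data: of genes changed by 1 on the log2 scale, 68.7% were called in T and innate lymphoid, 49.5% in ILC3-like and 48.5% in macrophage- and monocyte-like sums. Unchanged genes called were 21, 4 and 7, beside 68, 46 and 48 genes changed by 1 and 84, 84 and 93 changed by 2. Th17-like and dendritic cell-like sums were not simulated, so these rates do not cover them.

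Shares of barcodes were taken after thinning to 1000 UMIs, and counts cover counting error only. The p-values measure only the spread between the 2 libraries within groups, with an estimate per gene that all groups of a fit share. A p-value can thus change when a library outside the comparison is left out. Where 1 library of a group is left out, the other is assumed to vary like the other groups. Alternatives were DESeq2 1.42.0, RLE size factors, no filter on low counts, only the 4 libraries compared, at least 800 genes per barcode, resolution 0.5, thinning to 500 UMIs and each library left out. Also chosen after seeing the data were fits without the barcodes of highest doublet score (8.27% to 12.3% per library). So were fits without a T cell receptor or Kit UMI, of T cell clusters alone and of the Lyz1 and Pla2g2d cluster. Named genes were the 3 genes in every population, listed pathway genes past adjusted p 0.05 (up to 5 per list and comparison, otherwise the one of smallest unadjusted p, of which only some are printed), and the 5 genes most like each across clusters with at least 100 UMIs and 10 CPM in a cluster. Il17a, Il17f, Il10rb, Reg3b and Reg3g were added for context. The genes and lists were chosen with earlier results of these data known.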

Additional observations from a re-analysis of the deposited data

How the results depend on the processing

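Of 602 values that answer a comparison under the alternatives, those with 1 library left out included, 533 kept their direction and their side of the threshold, 31 came to pass it, 3 no longer passed, 24 changed sign and 11 shares moved. Il22ra2 in dendritic cell-like cells with DSS in wildtype kept its direction under each alternative. DESeq2 gave no adjusted p there (log2 fold change -4.56 in wildtype and -3.16 in the mutant). No paired analysis was possible because the titles give no replicate number that the groups share. Numbers in the titles of wildtype and mutant libraries lie near each other, and no label says whether these mark related animals. The planned removal of called doublets was not run, since none was called. With 2 libraries a group and Il22ra2 in 166 barcodes, depth limits small differences.

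With no filter on low counts, these log2 fold changes became edgeR calls, and the cause was not tested: Il22 in T and innate lymphoid cells with DSS in wildtype (-0.73) and in the mutant (-1.45), untreated mutant against wildtype (0.48) and the difference of DSS effects (-0.72). On the CD4 list the same held for untreated mutant against wildtype (1.23), DSS in the mutant (-1.58) and the difference (-1.16). In Th17-like cells it held for untreated mutant against wildtype (1.27) and the difference (-1.78), and in ILC3-like cells for mutant after DSS (-0.69), DSS in the mutant (-1.09) and the difference (-0.89). For Il22ra2 it held in macrophage- and monocyte-like cells for untreated mutant against wildtype (1.46), DSS in the mutant (-2.26) and the difference (-1.91), and over all barcodes for DSS in the mutant (-2.07). Fitting only the 4 libraries compared called Il22 in Th17-like cells of the untreated mutant (1.28) and Il22ra2 in macrophage- and monocyte-like cells with DSS in the mutant (-2.28). DESeq2 called Il22ra2 over all barcodes with DSS in the mutant (-2.10). Among values of the populations added after seeing the data, 10 became calls with no filter on low counts and 10 kept their side of the threshold. Fitting only the 4 libraries compared turned 2 of their values into calls.

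Signs turned, for values past no threshold and with the cause not tested, for Il22 on the CD4 list after DSS (-0.063) and Il22ra2 in the Lyz1 and Pla2g2d cluster with DSS in wildtype (0.092) at resolution 0.5. Without the barcodes of highest doublet score they turned for mutant against wildtype after DSS in dendritic cell-like cells (Il22ra2, -0.11) and in T cell clusters (Il22, 0.0096). Unthinned shares with Il22 were 14.5% in Th17-like, 1.33% in Treg-like, 0.873% in naive T-like and 5.58% in fibroblast-like barcodes, and at 500 UMIs 0.280% in Treg-like and 0.140% in naive T-like. Unthinned and averaged over libraries, barcodes with Il22 also had Il17a in 13.6%, Il17f in 17.9% and Ifng in 10.4% of ILC3-like, and Il17f in 36.6% and Ifng in 31.6% of Th17-like. When each library was left out in turn, Il22 in T and innate lymphoid cells together ranged from -1.34 to 0.48 for mutant against wildtype after DSS and -2.58 to -0.87 for DSS in the mutant. Il22 in CD4 T cells of the authors' list ranged from -1.14 to 0.54 for DSS in wildtype, -1.82 to 0.89 for mutant against wildtype after DSS and -3.47 to -0.77 for DSS in the mutant. Il22 in Th17-like cells ranged from -0.55 to 0.12 for DSS in wildtype, 0.97 to 1.50 for mutant against wildtype untreated, -1.47 to 0.0015 for mutant against wildtype after DSS, -2.91 to -1.43 for DSS in the mutant and -2.75 to -1.26 for the difference of DSS effects. Il22 in ILC3-like cells ranged from -0.71 to 0.23 for DSS in wildtype, -0.21 to 0.55 for mutant against wildtype untreated, -1.74 to -0.14 for mutant against wildtype after DSS, -2.12 to -0.52 for DSS in the mutant and -1.957 to -0.35 for the difference of DSS effects. Il22ra2 in dendritic cell-like cells ranged from -0.27 to 1.56 for mutant against wildtype after DSS and -4.11 to -2.46 for DSS in the mutant. Il22ra2 in macrophage- and monocyte-like cells ranged from -1.22 to 1.62 for DSS in wildtype, -2.90 to 0.41 for mutant against wildtype after DSS and -4.72 to -1.43 for DSS in the mutant. Il22 in all barcodes of a library ranged from -1.16 to 0.29 for DSS in wildtype, -1.43 to 0.50 for mutant against wildtype after DSS and -1.63 to 0.30 for the difference of DSS effects. Il22ra2 in all barcodes of a library ranged from -1.20 to 0.16 for mutant against wildtype after DSS and -2.85 to -1.61 for DSS in the mutant. Il22ra2 in the Lyz1 and Pla2g2d cluster ranged from -1.01 to 0.65 for DSS in wildtype and -2.80 to 0.45 for mutant against wildtype after DSS. Il22 in ILC3-like cells without a T cell receptor UMI ranged from -2.02 to 0.090 for DSS in wildtype, -0.65 to 0.35 for mutant against wildtype untreated, -1.65 to 0.60 for mutant against wildtype after DSS and -1.58 to 0.67 for the difference of DSS effects. Il22 in T cell clusters ranged from -1.46 to 0.011 for DSS in wildtype and -1.97 to 0.87 for mutant against wildtype after DSS. Il22 in Th17-like cells without a Kit UMI ranged from -1.36 to 0.041 for mutant against wildtype after DSS.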
